A study of Mus musculus with 24 samples.

Results

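Liver expression of mice that had eaten cooked meals from a staff cafeteria was compared with that of mice that had eaten a diet of the kind given to captive chimpanzees, made of fruit, vegetables and yogurt. Samples were taken by the diet in their label, which gave 12 of the 24 liver arrays, 6 per diet, with 3 mice of each diet in each of 2 processing batches. All 24 mice were females of the strain NMR-1, were 8 weeks old when the feeding began and were kept on their diet for 2 weeks. They had been raised on standard mouse pellets, which 6 further mice went on eating, and 6 others ate fast food. The pellet mice thus stand here for the diet before the change, though sampled at the same time, and the fast food diet for the most similar comparison. Each mouse gave 1 Affymetrix array of whole liver, and no label names a litter. Values are log2 expression, so a difference of 1 is a doubling. A gene said to have risen or fallen was higher or lower under the cafeteria than under the chimpanzee diet. It was not followed over time, and the words do not say which diet moved it. The question was which liver genes differ between mice on the cafeteria and on the chimpanzee diet.

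The liver turns the sugar that reaches it from the gut into pyruvate and then into fatty acids, and fructose enters this route past the main control point of glycolysis. It also breaks down the amino acids of dietary protein that are not used for growth: their nitrogen is passed between carriers by aminotransferases and leaves as urea, and their carbon is burnt or turned into glucose. Genes of both routes are known to follow the diet, the sugar route through the transcription factors ChREBP (Mlxipl) and SREBP1c (Srebf1). Enzymes of drug clearance, such as the cytochromes P450 of the Cyp2b family, are induced by many foreign compounds.

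Of 13385 genes tested, 168 differed between the diets at an adjusted p of 0.05 (limma with Benjamini-Hochberg adjustment), which is 1.26% of the genes. There were 119 genes higher under the cafeteria diet, 0.889% of those tested, and 49 lower, 0.366%. At an unadjusted p of 0.05 in limma there were 1530 of the 13385 genes, against which such counts in the lists below are to be read. All 168 had the same sign in batch 1 and in batch 2. Their median difference in size was 0.664, with 33 genes over 1 and 40 under 0.5. In 37 of them, 30 higher and 7 lower, the 6 cafeteria and the 6 chimpanzee mice did not overlap. The call rests on the same values and favours such a separation, and its share over all genes tested was not counted. The number of calls turned strongly on which mice were in the fit. It fell to 67 without cafeteria mouse 2 of batch 1, 73 without cafeteria mouse 2 of batch 2, 87 without chimpanzee mouse 2 of batch 1, 97 and 104 without chimpanzee mice 1 and 2 of batch 2, and 54 in a fit of the 12 mice alone, and it reached 492 without cafeteria mouse 3 of batch 2. Batch 1 alone gave 41 calls and batch 2 alone 0, although 601 genes were under an unadjusted p of 0.05 there.

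**Figure D1:**
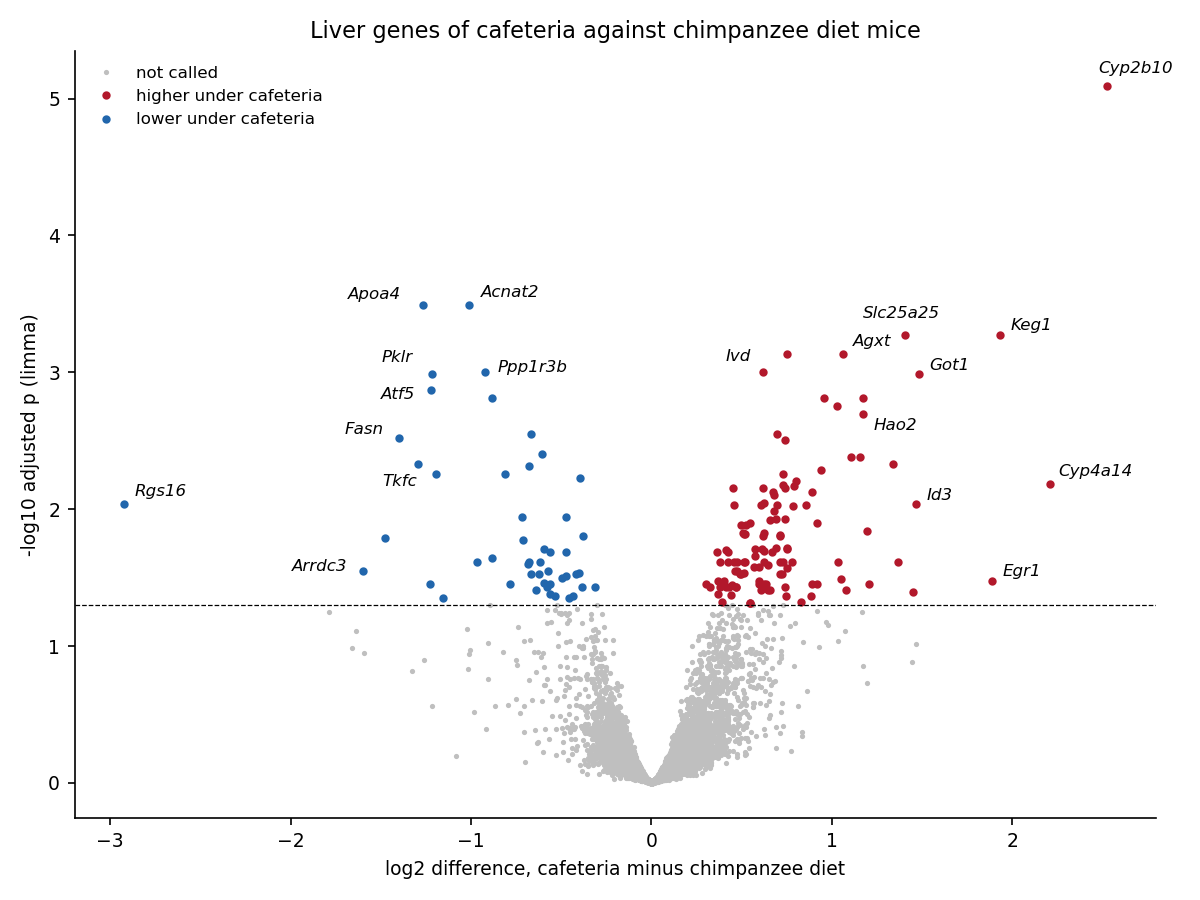
Log2 difference between the cafeteria and the chimpanzee diet (x axis) against the adjusted p of limma on a −log10 scale (y axis) for the 13385 genes tested, each a point. Above the dashed line at 0.05 lie 119 genes higher under the cafeteria diet (red) and 49 lower (blue), with Cyp2b10 and Rgs16 farthest out on either side.

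**Figure D2:**
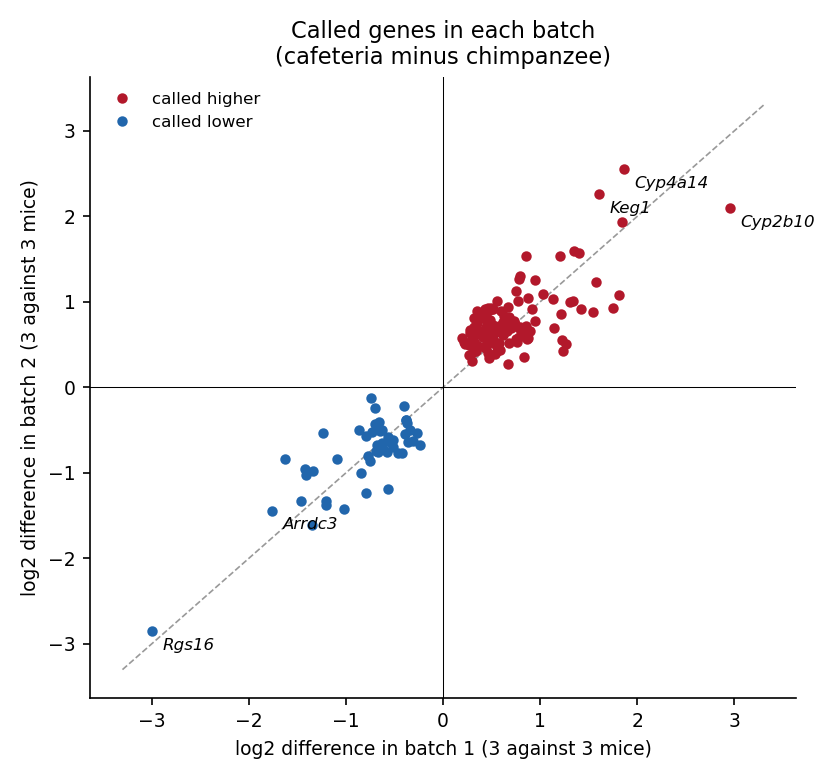
Log2 difference between the diets in batch 1 (x axis) and in batch 2 (y axis) for the 168 called genes, each from 3 against 3 mice, with the diagonal dashed. All points lie in the quadrants of equal sign, which the call itself favours since it pools both batches.

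A quality measure of the RNA moved with the diet. On these arrays a control at the 3′ end of beta-actin is set against one at its 5′ end, and a larger difference goes with more broken RNA or shorter copies. The difference was 0.906 ± 0.054 under the cafeteria diet and 1.08 ± 0.15 under the chimpanzee diet (SD, n = 6), and was lower under the cafeteria diet by an exact permutation test within batches (p = 0.01, adjusted p = 0.02 over 2 tests, two-sided, smallest possible p = 0.005). The single mice overlapped, from 0.812 to 0.957 against 0.879 to 1.336, and the gap was −0.103 in batch 1 and −0.243 in batch 2. With this difference as a covariate 33 of the 168 genes were called and no others, and its part in the results was not tested further. The signal range of the arrays, read as the 90th percentile of each, was 6.26 ± 0.34 against 6.20 ± 0.32 (SD, n = 6; exact permutation p = 0.665, adjusted p = 0.665).

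Tissue makeup was read from marker genes. Hepatocyte markers averaged between 11.9 and 12.1 in the cafeteria mice and between 11.8 and 12.1 in the chimpanzee mice, which bears out the label of liver. Of 15 markers of Kupffer cells, the macrophages of the liver, all were measured and 0 were called (limma, 0 also at an unadjusted p of 0.05). Their mean level ran from 4.89 to 6.45 against 4.94 to 6.11, and their median difference was 0.50 in batch 1 and −0.20 in batch 2. Markers of endothelial, stellate, T, B, neutrophil, erythroid, pancreatic acinar, fat and muscle cells gave no call either. In whole tissue, fewer cells of a type and less RNA per cell cannot be told apart.

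**Figure D3:**
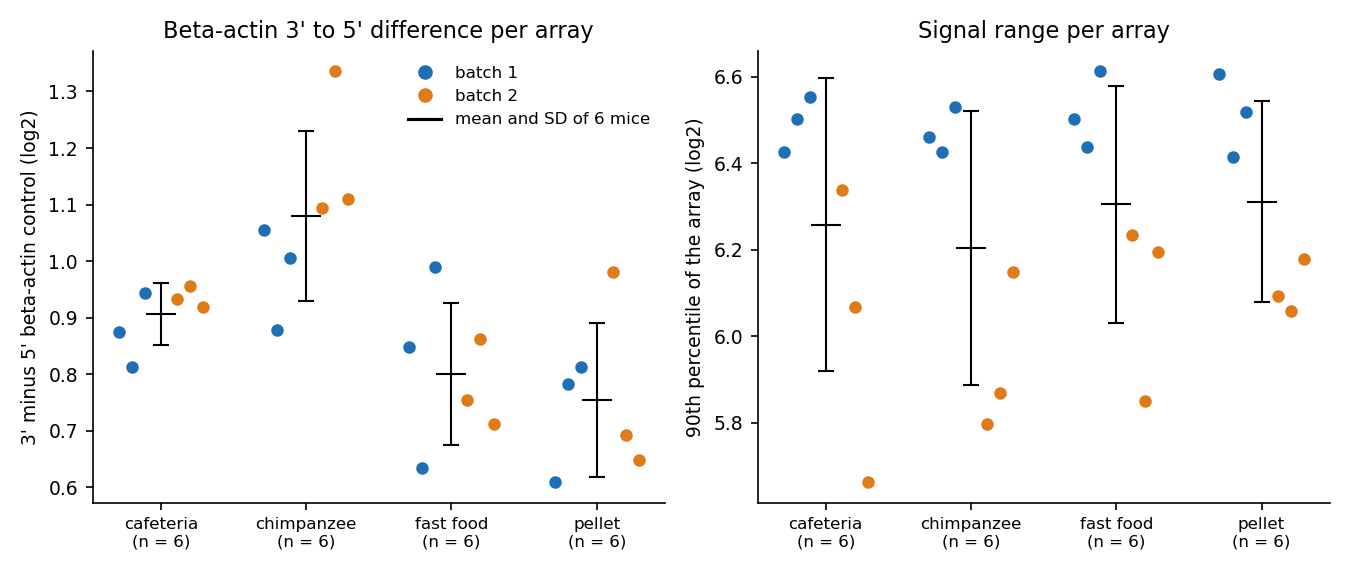
Left, the difference between the 3′ and 5′ beta-actin controls of each array (log2), and right, the 90th percentile of each array (log2), by diet, where a mouse of batch 1 is a blue point and a mouse of batch 2 an orange point, and black marks the mean ± SD of 6. The chimpanzee mice reach the highest beta-actin differences, up to 1.336, and batch 2 holds the arrays of lowest signal range in all diets.

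Genes of amino acid breakdown were higher under the cafeteria diet. Of 87 genes measured on 5 lists of amino acid metabolism, 15 rose and 0 fell, that is 17.2% against 0.889% of all genes, and 77 of the 87 had a positive difference. Their median difference was 0.223, beside 0.005 over all genes tested. This lean in sign was not particular to amino acid genes. The constitutive proteasome had 31 of 31 genes positive (median 0.21, 0 calls) and the respiratory chain 46 of 48 (median 0.187, 1 call). Cholesterol synthesis had 19 of 20 positive (median 0.583, 1 call) and antigen presentation 26 of 27 (median 0.167, 1 call). Some lists leaned less or downward, such as ribosomal proteins (median 0.06) and acute phase genes (−0.091). The 15 genes that rose were spread over transamination (5 of 19 genes rose), sulfur amino acids (4 of 22), branched-chain amino acids (3 of 21), aromatic amino acids (2 of 13) and the urea cycle with its transporters (1 of 12).

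The aminotransferases stood at the front of this group. Got1, the cytosolic aspartate aminotransferase, lay at 9.40, 10.12 and 10.73 (lowest, median and highest of 6) in the cafeteria mice and at 7.85, 8.66 and 9.29 in the chimpanzee mice. Every cafeteria mouse was above every chimpanzee mouse, and the difference was 1.48 ± 0.22 (SE, limma adjusted p = 0.00103). Agxt, which moves the amino group of alanine onto glyoxylate, lay at 9.09, 9.91 and 10.21 against 8.35, 8.83 and 9.30. Here the groups overlapped through cafeteria mouse 3 of batch 2 alone, which lay below the highest chimpanzee mouse, and the difference was 1.06 ± 0.15 (limma adjusted p = 0.000735). Gpt, the alanine aminotransferase used in the clinic as a liver test, rose by 0.62 ± 0.12 (adjusted p = 0.00696), and Oat, which acts on ornithine, by 0.75 ± 0.16 (adjusted p = 0.0193). Abat, which removes the amino group of GABA, rose by 0.62 on its main probe set, but a further probe set of the gene gave −0.045. The mitochondrial partners Got2 and Gpt2 were not called, with differences of 0.03 and −0.03.

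Within the branched-chain list, Ivd, the isovaleryl-CoA dehydrogenase of leucine breakdown, lay at 8.23, 8.58 and 8.69 in the cafeteria mice and at 7.46, 7.97 and 8.34 in the chimpanzee mice. Only cafeteria mouse 3 of batch 2 fell into the chimpanzee range, and the difference was 0.62 ± 0.09 (limma adjusted p = 0.000987). Mccc2, a subunit of the next enzyme of the leucine route, rose by 0.57 ± 0.13, and Mcee, the epimerase that prepares methylmalonyl-CoA for its mutase, by 0.58 ± 0.12. The mutase itself, Mmut, differed by 0.41 and just missed the threshold (adjusted p = 0.0682). All 21 genes of the list had a positive difference, with a median of 0.198, but the branched-chain keto acid dehydrogenase subunit Bckdha, at 0.02, was among the smallest.

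On the lists of sulfur and aromatic amino acids 4 of 22 and 2 of 13 genes rose. Cbs, which commits homocysteine to cysteine, lay at 8.38, 9.22 and 9.36 under the cafeteria diet and at 8.00, 8.41 and 8.73 under the chimpanzee diet. All cafeteria mice but mouse 3 of batch 2 were above all chimpanzee mice, and the difference was 0.74 ± 0.14 (limma adjusted p = 0.00696). Bhmt, which turns homocysteine back into methionine, rose by 0.70 ± 0.14, Suox, which oxidizes sulfite, by 0.69 ± 0.15, and Sardh, which acts on sarcosine, by 0.32 ± 0.08. Kynu, of tryptophan breakdown, rose by 0.94 ± 0.17, and Tat, the tyrosine aminotransferase, by 0.69 ± 0.14. Of the urea cycle list only Slc7a2, a carrier of arginine and other basic amino acids, passed, with 0.66 ± 0.16. The cycle enzymes Asl, at 0.44, and Otc, at 0.32, did not (limma adjusted p = 0.05035 and 0.134).

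With the beta-actin difference as a covariate, 5 of these 15 genes (Agxt, Got1, Ivd, Cbs and Bhmt) were still called, and the median of the 87 genes was 0.211. The count was 6 in the fit of the 12 mice alone, 9 without cafeteria mouse 2 of batch 1 or mouse 2 of batch 2 and 26 without cafeteria mouse 3 of batch 2, and 0 members were called lower in these fits. Quantile normalization gave 20 higher and 1 lower with a median of 0.145, and cyclic loess 20 higher and 2 lower with a median of 0.132.

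Genes of sugar use and fatty acid synthesis were lower. Of 38 genes measured on the lists of fructose use and glycolysis and of fatty acid synthesis, 5 fell and 0 rose, that is 13.2% against 0.366% of all genes. Their median difference was −0.164, with 26 negative. The 5 genes were Khk, Tkfc, Pklr, Fasn and Srebf1, which together span the route from fructose to fatty acids.

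Khk, the ketohexokinase that puts a phosphate on fructose, lay at 9.21, 9.57 and 9.88 in the cafeteria mice and at 9.86, 10.25 and 10.47 in the chimpanzee mice. The ranges touched through 1 mouse on either side, and the gene fell by 0.68 ± 0.12 (limma adjusted p = 0.0048). Tkfc, which handles the glyceraldehyde made from fructose, lay at 4.87, 6.48 and 6.76 against 6.31, 7.55 and 8.37. Both groups had a wide spread and overlapped, and Tkfc fell by 1.19 ± 0.22 (limma adjusted p = 0.00552). Pklr, the liver pyruvate kinase that ends glycolysis, lay at 7.09, 7.25 and 7.48 against 8.15, 8.52 and 8.88. The cafeteria mice were tightly grouped and all below the chimpanzee mice, and Pklr fell by 1.22 ± 0.18 (limma adjusted p = 0.00103). The fructose transporter Slc2a5 and the glucose transporter Slc2a2 differed by 0.10 and −0.10 and were not called.

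Fasn, the fatty acid synthase, lay at 7.36, 7.80 and 8.38 in the cafeteria mice and at 8.60, 9.28 and 9.75 in the chimpanzee mice. No mice overlapped, and Fasn fell by 1.40 ± 0.24 (limma adjusted p = 0.00303). Srebf1 fell by 0.69 ± 0.16 (adjusted p = 0.0253), and Mlxipl, which codes for ChREBP, differed by −0.48 ± 0.13 and missed the threshold (adjusted p = 0.0578). Mid1ip1, which helps activate the acetyl-CoA carboxylase and was on no list, fell by 0.96 ± 0.22 (adjusted p = 0.0241). Other enzymes of the route gave negative values without passing, among them Pnpla3 at −1.66 (adjusted p = 0.104), Elovl6 at −1.26 and Acaca at −0.65, while Acly was at 0.04 and Scd1 at −0.25. Ppp1r3b, which brings a phosphatase to glycogen and so favours its storage, fell by 0.92 ± 0.14 (adjusted p = 0.000987) as the only call of 20 genes of gluconeogenesis and glycogen.

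With the beta-actin covariate 4 of the 5 genes were called (Khk, Tkfc, Pklr and Fasn), and leaving out any mouse left between 4 and 7. Quantile normalization of the arrays gave 12 calls among the 38 genes, all lower.

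**Figure D4:**
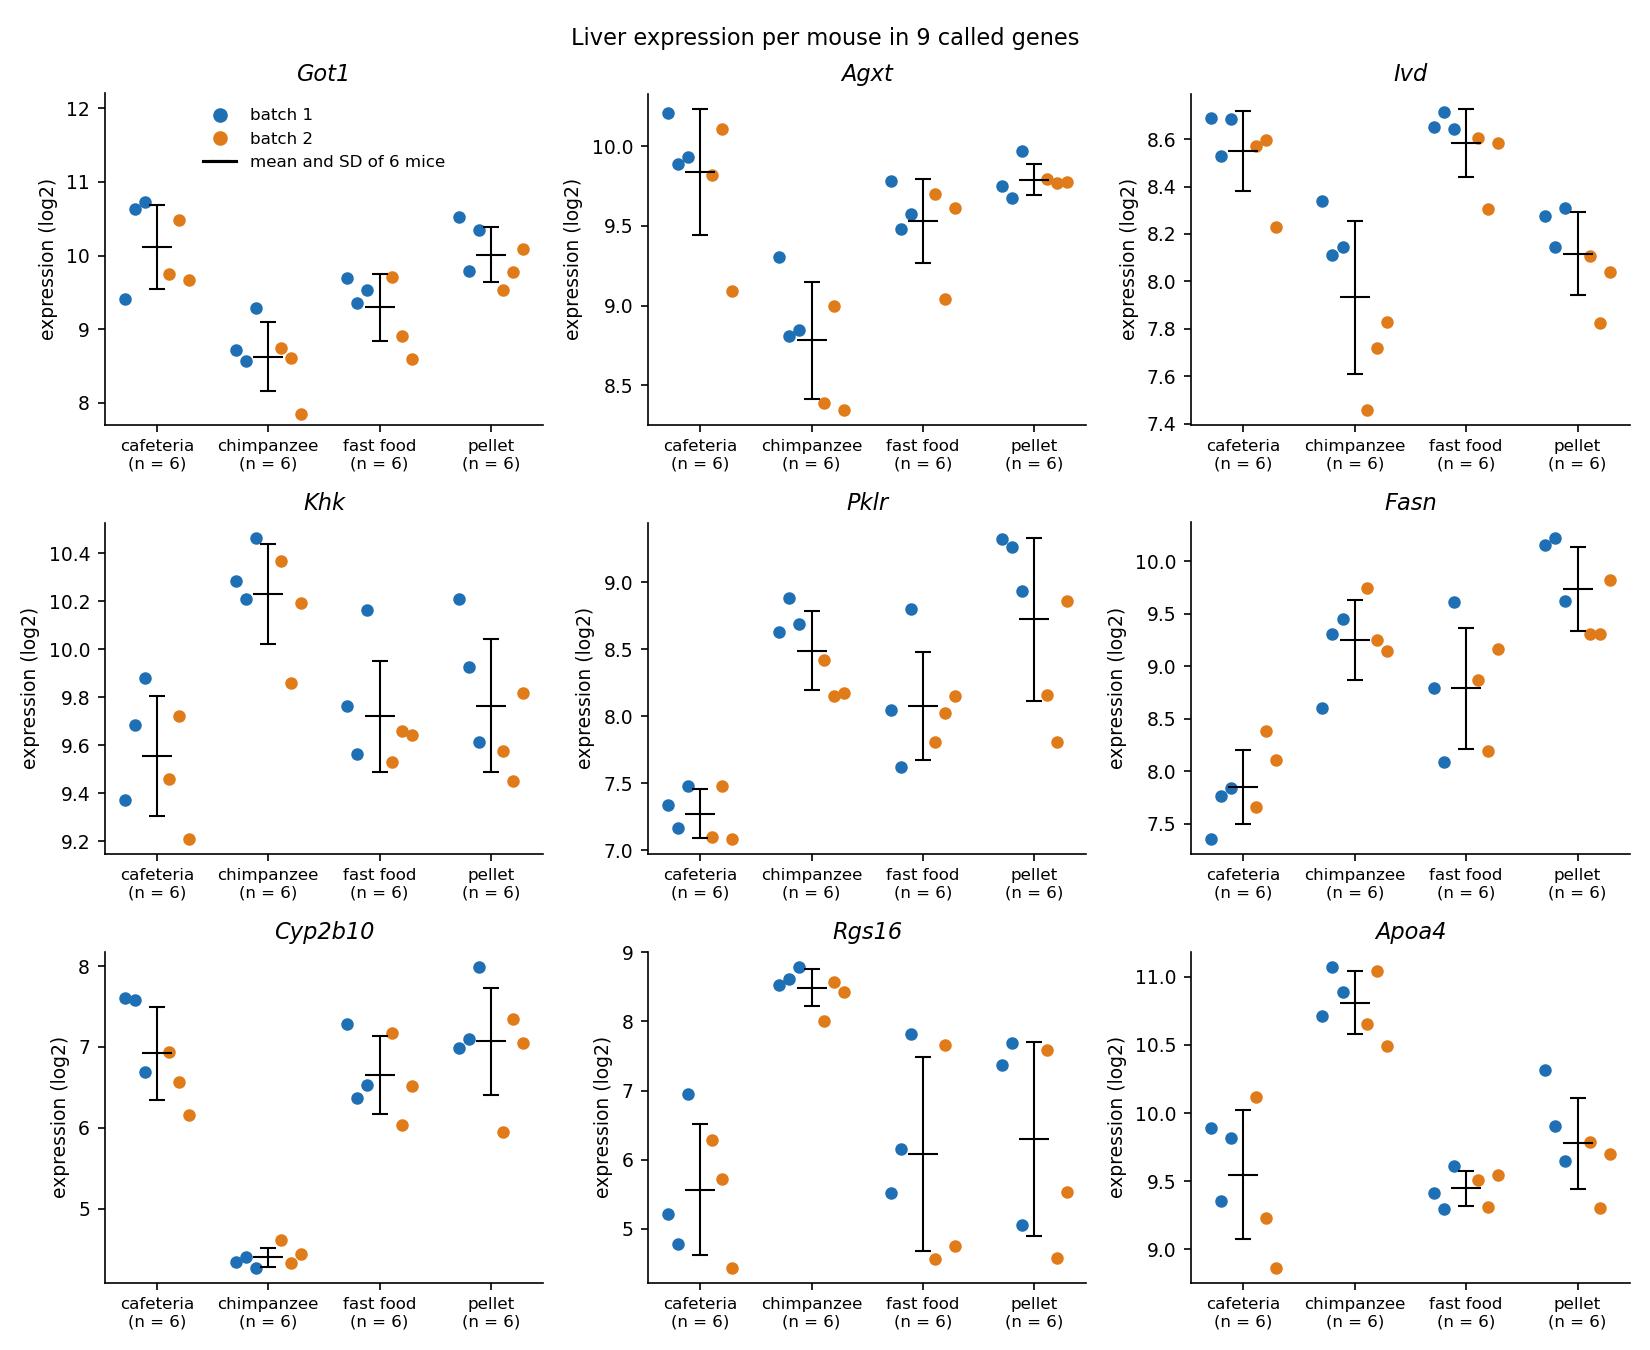
Log2 expression of 9 called genes in every mouse (y axes) by diet (x axes), where a mouse of batch 1 is a blue point and a mouse of batch 2 an orange point, and black marks the mean ± SD of 6. Under the cafeteria diet Got1, Agxt, Ivd and Cyp2b10 are higher and Khk, Pklr, Fasn, Rgs16 and Apoa4 lower than under the chimpanzee diet, and in Cyp2b10 the chimpanzee mice alone lie near 4.4 while all mice of the other 3 diets lie at 5.95 or above.

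Genes of cholesterol synthesis leaned upward with a single call. Msmo1, which removes methyl groups from sterols, lay at 8.98, 9.68 and 10.13 in the cafeteria mice and at 7.74, 8.18 and 9.28 in the chimpanzee mice. The groups overlapped, and Msmo1 rose by 1.21 ± 0.29 (limma adjusted p = 0.0349). The list had the largest median of the pathway lists, 0.583 over 20 genes, of which 19 were positive. In limma 12 were under an unadjusted p of 0.05, beside 1530 of all 13385 genes, but the spread between mice was wide. Idi1, early in the route, differed by 1.47 ± 0.43 (adjusted p = 0.0958), and Dhcr7, its last enzyme, by 0.92 ± 0.24 (adjusted p = 0.0558). Between 0 and 10 genes of the list were called over the alternatives, with 0 under the beta-actin covariate, 8 without fast food mouse 2 of batch 2 and 10 with array weights. The count was also 0 without chimpanzee mouse 1, 2 or 3 of batch 1 or mouse 1 of batch 2, and without cafeteria mouse 2 or 3 of batch 1 or mouse 2 of batch 2.

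Fat oxidation showed little of this. Of 20 genes of mitochondrial fatty acid oxidation 0 were called (2 at an unadjusted p of 0.05), with a median of 0.106. Of 20 targets of PPARA, the receptor that turns on fat oxidation in fasting, only Cyp4a14 was called, and the median was 0.007. Cyp4a14, which hydroxylates the end of fatty acids, lay at 7.26, 8.42 and 9.37 in the cafeteria mice and at 4.20, 6.57 and 7.54 in the chimpanzee mice. The chimpanzee mice were widely spread and the groups overlapped when the batches were pooled. The difference was 2.21 ± 0.41 (limma adjusted p = 0.00655; 0.104 with the beta-actin covariate). Within each batch the groups were apart. Cafeteria mice lay at 8.98 to 9.37 against 7.15 to 7.54 in batch 1, and at 7.26 to 7.85 against 4.20 to 5.99 in batch 2. Cyp4a14 was among the genes left out where those with an interaction of diet and batch were removed. The pellet mice were lower than the cafeteria and the chimpanzee mice, at 3.26 ± 0.42 (SD, n = 6), and the fast food mice averaged 9.43.

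Cyp2b10 was the only call among 25 genes of the P450 list. It lay at 6.16, 6.81 and 7.60 in the cafeteria mice and at 4.27, 4.37 and 4.61 in the chimpanzee mice. No mice overlapped, and the difference of 2.52 ± 0.25 had the smallest adjusted p of all genes (limma, 8.05e-06). The gene's other probe sets gave 2.12 and 2.36. Pellet mice averaged 7.07 ± 0.66 and fast food mice 6.65 ± 0.48 (SD, n = 6), so the chimpanzee mice had the lowest mean of the 4 diets. Its relative Cyp2b9 was at 0.08 and Cyp3a11 at 0.29. Among 30 conjugation enzymes Gstk1 and Gstt2, both glutathione transferases, rose by 0.96 ± 0.15 and 0.66 ± 0.13, and Abcc3, a pump that exports conjugates, rose by 0.75 ± 0.16.

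Further large increases fell outside the metabolic lists. Keg1, named as a glycine N-acyltransferase-like protein, lay at 7.88, 8.88 and 9.29 in the cafeteria mice and at 6.17, 6.92 and 7.35 in the chimpanzee mice. The groups did not overlap, and the difference was 1.93 ± 0.27 (limma adjusted p = 0.000531). Id3 and Id1, inhibitors of helix-loop-helix transcription factors and known targets of BMP signals, rose by 1.47 ± 0.29 and 1.15 ± 0.20, each without overlap of the mice. They were the only calls among 21 genes of BMP signalling and metal handling, where the iron hormone gene Hamp was at 0.61 and Mt2, a metallothionein, at −1.64 (adjusted p = 0.077). Slc25a25, a mitochondrial carrier of ATP-Mg and phosphate, rose by 1.40 ± 0.19, although its other probe set gave −0.105. Hao2, a peroxisomal oxidase of hydroxy acids, rose by 1.17 ± 0.19.

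Egr1, an immediate early transcription factor, lay at 5.30, 5.99 and 7.25 in the cafeteria mice and at 3.53, 3.89 and 5.76 in the chimpanzee mice. The overlap came from the highest chimpanzee mouse, and the difference was 1.89 ± 0.45 (limma adjusted p = 0.0333). Gadd45g, which is induced by stress, rose by 1.45 ± 0.36 (adjusted p = 0.0404), with cafeteria mice from 4.24 to 6.88. Neither gene was called with the beta-actin covariate or in the fit of 12 mice. Krt23, a keratin listed for bile duct cells, rose by 1.17 ± 0.19, while the duct markers Krt19, at 0.21, and Epcam, at −0.18, were not called. Nrep rose by 1.37, Wsb1, a subunit of a ubiquitin ligase, by 1.34, and Gpcpd1, which cleaves glycerophosphocholine, by 1.20.

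The largest decrease was that of Rgs16, which shortens signals of G proteins and cycles over the day in liver. It lay at 4.44, 5.46 and 6.95 in the cafeteria mice and at 8.01, 8.55 and 8.79 in the chimpanzee mice. The chimpanzee mice were narrowly grouped and all above the widely spread cafeteria mice, and Rgs16 fell by 2.92 ± 0.57 (limma adjusted p = 0.00916; 0.142 with the beta-actin covariate). Its other probe sets gave −2.71 and −1.68. Hlf, a clock output factor, fell by 0.72 ± 0.14 (adjusted p = 0.0115). The other 20 of 22 clock genes were not called, with Per1 at 0.12, Arntl at 0.11 and Nr1d1 at 0.11.

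Apoa4, an apolipoprotein of triglyceride-rich particles, lay at 8.86, 9.58 and 10.12 in the cafeteria mice and at 10.49, 10.80 and 11.08 in the chimpanzee mice. The groups were apart in both batches, and Apoa4 fell by 1.27 ± 0.17 (limma adjusted p = 0.000323). Mttp, which loads lipid onto such particles, fell by 0.46 ± 0.12 (adjusted p = 0.0446). Atf5, a transcription factor of stress responses, fell by 1.22 ± 0.19 (adjusted p = 0.00135) as the only call of 22 genes of the response to amino acid shortage, in which Asns was at 0.05 and Atf4 at 0.22. Acnat2, an enzyme that joins fatty acids to amino acids, fell by 1.01 ± 0.13 (adjusted p = 0.000323).

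Arrdc3, an arrestin-like adaptor, fell by 1.60 ± 0.37, Tcim by 1.48 ± 0.31 and Lrrc28 by 1.29 ± 0.23. Lcn2, an acute phase protein that binds bacterial iron carriers, fell by 1.23 ± 0.30 as the only call of 30 acute phase genes. Cyp39a1, which hydroxylates oxysterols on the way to bile acids, fell by 1.16 ± 0.29, and Slc35g1 by 0.88 ± 0.20. Arrdc3, Lcn2, Cyp39a1 and Slc35g1 were not called in the fit of 12 mice or with the beta-actin covariate.

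A few members of other lists passed. Of 21 genes of vitamin A and vitamin C metabolism 2 were higher and 1 lower, and of 16 genes of steroid and thyroid hormone handling 1 was higher and 1 lower. Over all genes the shares were 0.889% higher and 0.366% lower. Gulo, which makes vitamin C in mice, fell by 0.61 ± 0.11 (limma adjusted p = 0.00396), and Rdh16, of retinol metabolism, rose by 0.92 ± 0.19 (adjusted p = 0.0126). Slc2a1, a carrier of glucose and oxidized vitamin C, rose by 0.59 ± 0.14, at low levels of 4.38 against 3.78. Its other probe sets gave 0.10 and 0.43. Fkbp5, a co-chaperone known to follow glucocorticoids, fell by 0.81 ± 0.15 (adjusted p = 0.00552), and Hsd3b3, of steroid metabolism, rose by 0.50 ± 0.12. Herpud1, which serves the removal of misfolded proteins, fell by 0.53 ± 0.13 and Bag3, a partner of heat shock proteins, by 0.56 ± 0.14. Rpl14 rose by 0.43 ± 0.10, but at 3.48 against 3.05 it lay at the lower limit of the genes tested.

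Lists of large complexes had few calls. All 31 genes of the constitutive proteasome had a positive difference, with a median of 0.21 and 0 calls (11 at an unadjusted p of 0.05, limma). Of 48 genes of the respiratory chain and ATP synthase 46 were positive, with a median of 0.187, and Ndufs4, of complex I, was called at 0.39 ± 0.10 (adjusted p = 0.0478), although its other probe sets gave 0.01 and 0.20. Of 26 ribosomal protein genes 21 were positive and 5 negative, with a median of 0.06, and Rpl14 was the only call. Psmb10, a subunit of the immunoproteasome, rose by 0.57 ± 0.13 as the only call of 27 genes of antigen presentation. Lists of complement, chaperones of the endoplasmic reticulum, heme synthesis and the growth hormone axis gave 0 calls in limma. Of their 29, 20, 10 and 17 members, 3, 4, 2 and 6 were at an unadjusted p of 0.05, beside 1530 of all 13385 genes.

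**Figure D5:**
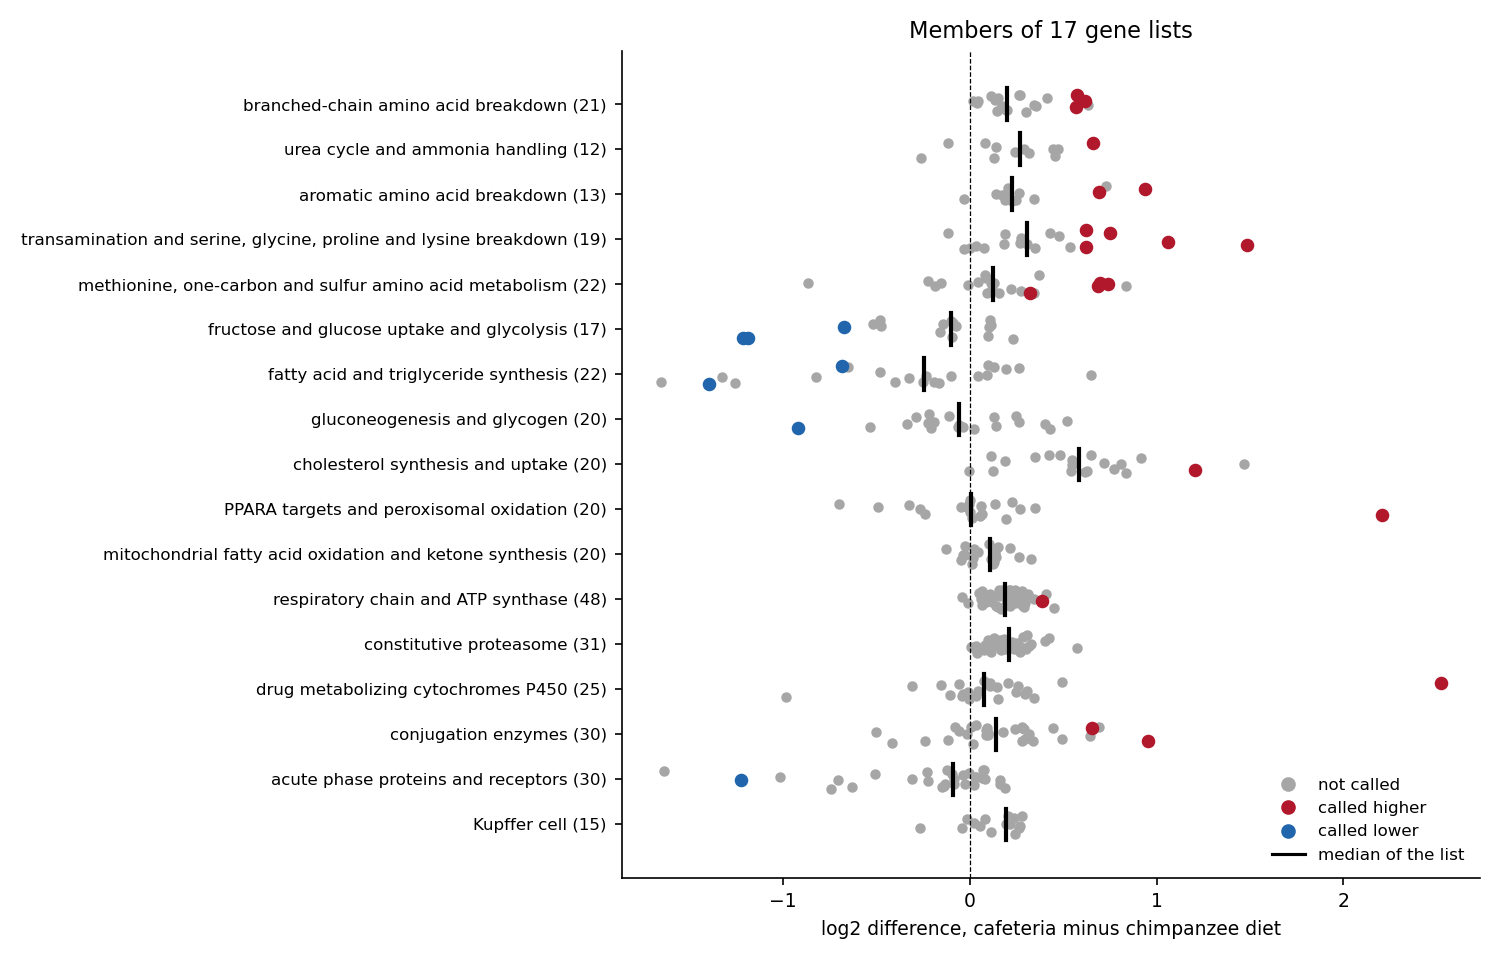
Log2 difference between the cafeteria and the chimpanzee diet (x axis) of every measured member of 17 gene lists (y axis, number of members in brackets), with called members in red (higher) or blue (lower) and the median of a list as a black bar. The called members of the 5 amino acid lists at the top are all red and those of the 2 lists of sugar use and fatty acid synthesis all blue, while the cholesterol list has the median farthest from 0, at 0.583.

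Of the 168 genes, 18 were called in each of 39 alternative fits of limma that kept both batches, those with the beta-actin covariate, without batch and without each mouse included. They were Got1, Agxt and Ivd of amino acid breakdown, Khk, Pklr and Fasn of the route from sugar to fat, and Cyp2b10, Keg1, Slc25a25, Hao2, Krt23, Id1, Apoa4 and Acnat2 among the large changes. The others were Ces2a, a carboxylesterase (0.75 ± 0.11), Selenbp1, which oxidizes methanethiol (0.70 ± 0.12), Ccl9, a chemokine (0.74 ± 0.13), and Cyp46a1, which hydroxylates cholesterol (−0.88 ± 0.14). The 24 fits with a mouse left out were also counted alone, but only for the 60 called genes chosen by the naming rule. That rule favours large differences and small p values, and the same count over all 168 calls was not made. Of the 60 genes, 35 were called in all 24 fits. The other 25, which lost the call without at least 1 mouse, were Egr1, Gadd45g, Nrep, Msmo1, Slc7a2, Mcee, Mccc2, Suox, Sardh, Abcc3, Psmb10, Ndufs4, Rpl14, Hsd3b3 and Slc2a1 among the higher genes and Arrdc3, Tcim, Lcn2, Cyp39a1, Mid1ip1, Slc35g1, Srebf1, Herpud1, Mttp and Bag3 among the lower genes.

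The promoters of the genes that changed most in each direction, and of a pair of genes on the route from fructose to pyruvate, are shown, the latter because E-box letters are known to serve the sugar response of that route. The windows are the 250 bases before the start in the RefSeq annotation of build GRCm38.p6, all on the plus strand: chr1:153740103-153740352 (Rgs16), chr7:25897408-25897657 (Cyp2b10), chr5:30921309-30921558 (Khk) and chr3:89136373-89136622 (Pklr, 1 of its 2 listed starts). Capitals mark the E-box core CACGTG or the TATA box TATAAA, searched on both strands. Khk and Pklr were chosen after their letters were read.
Rgs16: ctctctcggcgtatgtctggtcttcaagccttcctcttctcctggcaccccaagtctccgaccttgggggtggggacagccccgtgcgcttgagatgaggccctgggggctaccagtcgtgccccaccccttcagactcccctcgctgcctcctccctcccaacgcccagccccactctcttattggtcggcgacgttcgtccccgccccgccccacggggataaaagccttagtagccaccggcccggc
Cyp2b10: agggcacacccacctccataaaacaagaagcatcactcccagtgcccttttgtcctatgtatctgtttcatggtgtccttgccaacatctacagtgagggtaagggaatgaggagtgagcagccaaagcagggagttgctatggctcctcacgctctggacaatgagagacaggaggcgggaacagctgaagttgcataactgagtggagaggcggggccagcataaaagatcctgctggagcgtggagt
Khk: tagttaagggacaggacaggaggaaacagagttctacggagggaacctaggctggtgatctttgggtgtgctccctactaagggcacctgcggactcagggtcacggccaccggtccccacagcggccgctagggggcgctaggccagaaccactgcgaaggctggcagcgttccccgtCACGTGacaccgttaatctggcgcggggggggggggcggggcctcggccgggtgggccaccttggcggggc
Pklr: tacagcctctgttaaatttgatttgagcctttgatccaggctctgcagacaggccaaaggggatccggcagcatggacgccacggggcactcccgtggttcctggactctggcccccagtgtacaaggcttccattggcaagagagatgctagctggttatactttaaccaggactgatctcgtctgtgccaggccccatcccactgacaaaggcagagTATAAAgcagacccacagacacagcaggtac
The core in Khk begins 71 bases before the start, the TATA box in Pklr 31 bases before it, and the windows of Rgs16 and Cyp2b10 hold neither run of letters. Of the 5 called genes from fructose use to fatty acid synthesis, only Khk had the exact letters CACGTG in a window. Pklr (0 of 2 windows), Fasn (0 of 1), Tkfc (0 of 1) and Srebf1 (0 of 3) did not. Runs close to the core were not searched, and the Pklr window printed above holds cacggg and cccgtg near each other. The count therefore does not show which genes lack a site of the sugar response. An E-box core was in 11.5% of the 182 windows of called genes, in 7.88% of the 13676 windows of genes tested and in 6.06% of all 32619 windows, and a TATA box in 7.69%, 7.33% and 12.4%. Windows of 1 gene can overlap, and a match is a run of letters and no measured binding.

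Set against the fast food diet, the cafeteria diet differed little. In the same fit 1 gene was called, Ang, a secreted ribonuclease, which is 0.00747% of the 13385 genes, and 684 were under an unadjusted p of 0.05. Ang lay at 9.35 ± 0.20 in the cafeteria mice and at 8.57 in the fast food mice, a difference of 0.79 (limma adjusted p = 0.0229), and at 9.12 ± 0.26 in the chimpanzee mice (SD, n = 6). The call was lost without fast food mouse 1, 2 or 3 of batch 1 or mouse 3 of batch 2, or cafeteria mouse 2 of batch 1, and 12 genes were called without fast food mouse 2 of batch 2. Of the 168 genes above, 0 were called between the cafeteria and the fast food diet. There 54 of the 168 were under an unadjusted p of 0.05 in limma, beside 684 of all 13385. The 168 were chosen with the same 6 cafeteria arrays, which favours low p values here, so the 54 are no independent result. The same holds for the single genes that follow. For Fasn the cafeteria mice were 0.94 lower than the fast food mice, for Pklr 0.80 and for Acnat2 0.73 lower, and for Got1 0.81 higher, while Cyp2b10 (0.27), Apoa4 (0.10) and Ivd (−0.04) were close to 0. None of these passed the adjusted threshold in that comparison.

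No mouse was measured before the change of diet, but the pellet mice stayed on the diet that all were raised on. Their mean was nearer to the cafeteria mean than to the chimpanzee mean in 78 of the 119 higher genes (65.5%) and 35 of the 49 lower genes (71.4%), beside 7928 of all 13385 genes (59.2%). For Got1 the pellet mean was 10.01, near the cafeteria mean of 10.11 and above the chimpanzee mean of 8.63, and for Apoa4 it was 9.78, near 9.55 and below 10.81. For Fasn it was the other way, with 9.74 in pellet mice, 9.25 in chimpanzee mice and 7.85 in cafeteria mice, and Pklr was at 8.72, 8.49 and 7.27. Amino acid genes went both ways. The pellet and cafeteria means were close in Agxt (9.79 and 9.84), Cbs (9.40 and 9.10), Bhmt (11.75 and 11.67), Kynu (7.88 and 7.81) and Suox (7.72 and 7.80). The pellet mean was nearer to the chimpanzee mean in Ivd (8.12 and 7.93), Gpt (9.46 and 9.38), Slc7a2 (8.89 and 9.07) and Sardh (9.21 and 9.34). The pellet mice were not tested against either diet here.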

How the data were processed

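Affymetrix mouse arrays of whole liver RNA, 1 for each of 24 female mice, were grouped by the diet and batch in their labels. The authors deposited log2 values from rma, run in the package affy, which corrects background, normalizes by quantiles and summarizes probe sets. Its version is not stated here, nor whether arrays of other tissue were normalized together with these. The deposited arrays did not share 1 distribution, so arrays with a narrow range carry smaller differences. No 2 arrays were identical, and those of the cafeteria and chimpanzee mice correlated between 0.935 and 0.994.

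Of 45101 probe sets 64 controls were set aside, and the platform annotation gave 1 symbol for 34945, several for 932 and none for 9160. Probe sets over 3.147, the median of the whole table, on 6 or more arrays were kept, and each gene was read from its probe set of highest mean, which gave 13385 genes. Differences came from limma 3.58.1 in R 4.3.3 (diet and batch, all 24 mice, two-sided, adjusted p of 0.05), so that the diets share 1 estimate of the spread. Probes of near-identical genes may share signal. The number of mice limits the precision, and no label says how the mice were kept or which shared a litter.

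The text names, among called genes of equal sign in both batches and without clone names, the 15 that rose most and the 15 that fell most, up to 4 members of smallest p in lists with 2 or more calls, and any called member of other lists. Further members and genes were named for their role or after their values were seen. The 44 lists held 897 symbols, of which 775 were tested. The comparison, lists and rules were chosen with earlier results of these data known. In simulated data of this comparison with 13385 genes, 33 of 50 genes changed by 0.5 were recovered and 49 of 50 changed by 1. For a change of −1 it was 48 of 50 and for 2 it was 50 of 50, with 13 false calls of 193. The simulated noise was independent between genes and equal on all arrays, while weights of the real arrays ran from 0.228 to 2.09. These rates therefore need not hold for the real arrays. Alternatives were the fit of 12 mice, each batch, other filters and normalizations, covariates for signal range and beta-actin, array weights, the replicate number as a block, each mouse left out, and the methods' two-way linear model at an unadjusted p of 0.01. That model kept probe sets over the same median on 2 or more arrays, in place of the study's filter on detection.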

Additional observations from a re-analysis of the deposited data

Results flagged for a closer look

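In 158 groups of 6 mice examined, 8 held a mouse far from the other 5 by Dixon's criterion, and chance flags about 1 in 20 groups. Of these, 5 were the same animal, cafeteria mouse 3 of batch 2, which was low in genes of amino acid breakdown. Its array had the lowest 90th percentile of all 24 (5.66) and a weight of 0.237 in the fit with array weights, and the part of this in its low values was not tested. The mouse lay at 8.23 in Ivd (next mouse 8.53), at 8.70 in Mmut (next 9.17), at 9.09 in Agxt (next 9.82), at 8.38 in Cbs (next 9.09) and at 6.94 in Suox (next 7.78). In Ivd, Agxt and Cbs it is the mouse that joins the cafeteria to the chimpanzee range.

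Cafeteria mouse 3 of batch 1 was high in Slc35g1, at 5.35 (next 4.57), and in Cyp17a1, a steroid hydroxylase, at 8.47 (next 5.35). Chimpanzee mouse 1 of batch 2 was low in Arrdc3, at 6.999 (next 7.81).

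Ang differed between the cafeteria and the fast food diet, by 0.79 in the test of that difference (limma), while its difference from the chimpanzee diet under the cafeteria diet was 0.23 and was not called (adjusted p = 0.496). It was the only call of that comparison in the fit of all 24 mice, with 0 to 12 calls when a mouse was left out.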

How the results depend on the processing

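Over all alternatives 0 of the called genes reversed their sign. The 168 calls (119 higher, 49 lower) became 54 (40 and 14) in the fit of 12 mice, of which 52 were shared, 27 (20 and 7) without batch, 41 (30 and 11) in batch 1, 0 (0 and 0) in batch 2, and 33 (20 and 13) with the beta-actin covariate. They became 396 (215 and 181) with quantile normalization, 422 (240 and 182) with cyclic loess, 523 (302 and 221) with the 90th percentile as a covariate and 549 (397 and 152) with array weights. The share of higher calls was 70.8% among the 168 calls, 54.3% with quantile normalization, 56.9% with cyclic loess and 57.7% with the 90th percentile. The methods' linear model gave 288 genes (186 and 102) at a p of 0.01 in Tukey's test of pairs of diets, without adjustment over genes. Benjamini-Hochberg adjustment of these Tukey p values left 24 (14 and 10). Leaving out each mouse gave 67 to 492 calls, 47 to 416 higher and 20 to 78 lower. The lowest came without cafeteria mouse 2 of batch 1, the highest without cafeteria mouse 3 of batch 2 (416 higher and 76 lower), and without cafeteria mouse 1 of batch 2 there were 81 higher and 78 lower. Without chimpanzee mouse 3 of batch 1 the lower calls were 29. Leaving out cafeteria mice 1 and 3 of batch 2 together, a choice made after seeing the data, gave 219 calls (163 and 56). Filters on low values, the intensity trend and removal of genes with an interaction of diet and batch gave 140 to 176 calls.

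Whether equal replicate numbers mark paired mice, such as littermates, could not be decided. The paper states that littermates were spread symmetrically over the diet groups, but no label ties them to the replicate numbers. The correlations that follow rest on few mice per diet and batch, so they cannot exclude pairing. Correlations of the deviations of mice with equal numbers ran from −0.63 to 0.18, and 2 of 6 cafeteria mice correlated best with their own number. With the replicate number as a block (replicate block) 152 genes were called (104 higher and 48 lower), 137 of them shared, and 0 between cafeteria and fast food.

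Between cafeteria and fast food the 1 call became 0 in the fit of 12 mice, without batch, in batch 2, with the beta-actin covariate and without both cafeteria mice, 4 with quantile normalization, 8 with cyclic loess, 11 with the 90th percentile, 9 with array weights and 7 without the 4 arrays of lowest 90th percentile. Leaving out each mouse gave 0 to 12. The methods' model gave 60 at a Tukey p of 0.01, not adjusted over genes, and 0 after Benjamini-Hochberg adjustment. The beta-actin difference was −0.103 in batch 1 and −0.243 in batch 2, where 3 against 3 mice cannot go below an exact permutation p of 0.1, and −0.214 to −0.122 with a mouse left out. That of the 90th percentile ran from −0.03 to 0.17. The cause of these shifts was not tested.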

Other observations

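The called genes given here were on no list and were picked after their values were seen, so they stand for no group. Of them only Tob1 was also called in the fit of 12 mice, and 0 were called with the beta-actin covariate. Zfp36, which destabilizes messenger RNA of cytokines, lay at 5.73, 7.28 and 7.80 (lowest, median and highest of 6) in the cafeteria mice and at 5.69, 5.94 and 6.53 in the chimpanzee mice, with overlap, and differed by 1.08 ± 0.27. Tob1, a suppressor of growth, lay at 8.19, 8.65 and 9.27 against 7.07, 7.77 and 8.19, with all cafeteria mice above all chimpanzee mice, and differed by 1.10 ± 0.19. Crem, a factor of the cyclic AMP response, differed by 1.03 ± 0.23, Pde4b, which breaks down cyclic AMP, by 0.92 ± 0.22, the kinase Plk3 by 0.89 ± 0.22, Junb by 0.64 ± 0.16 and Csrnp1 by 0.51 ± 0.11.

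Fh1, the fumarase of the citric acid cycle, differed by 0.62 ± 0.13, Suclg1, of the step that makes succinate, by 0.40 ± 0.10, Coq7, of ubiquinone synthesis, by 0.71 ± 0.15, and Aadat, an aminotransferase of aminoadipate, by 0.67 ± 0.15. Slc38a4, an amino acid carrier of the hepatocyte surface, differed by 0.51 ± 0.11. On the lower side stood Slc25a47, a mitochondrial carrier, at −0.56 ± 0.13, the glycine carrier gene Slc6a9 at −0.67 ± 0.16, the growth factor gene Fgf1 at −0.62 ± 0.14, the vasopressin receptor gene Avpr1a at −0.68 ± 0.15 and Ulk1, a kinase that starts autophagy, at −0.64 ± 0.16 (SE, limma).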
